A study of Mus musculus with 6 samples.

Results

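The 8 genes described here, Nphs1, Prmt8, Cobl, Pla2g1b, Ngfr, Ndrg2, Tcea3 and A2m, were among those with the largest falls from the PECAM1-only fraction of sorted mouse embryonic stem cell (ESC) cultures to the other fractions. They were picked by name from 38561 genes in the deposited count table, with these falls known. All 8 passed the filter on low counts, as did 13909 genes in all. The falls that chose them are therefore given as a description, with no test.

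RNA sequencing measured gene expression in ESC cultures (strain background 129X1/SvJ x 129S1/Sv), kept without feeder cells on gelatin in medium with 20% Knockout Serum Replacement and 1000 U/ml leukemia inhibitory factor (LIF), at passages 13 to 17. Flow cytometry separated the cells by PECAM1, an adhesion protein of undifferentiated ESCs, and by PDGFRa, the growth factor receptor that marks cells turning towards primitive endoderm. The 3 fractions were PDGFRa-only (PECAM1minPDGFRaplus in the labels), double-positive (PECAM1plusPDGFRaplus) and PECAM1-only (PECAM1plusPDGFRamin). All came from cultures labelled undifferentiated, with no further treatment named, and each library was made from amplified RNA of 100000 sorted events. Each fraction had 2 libraries, numbered Exp1 and Exp2 in the labels and called replicates 1 and 2 here. The labels do not say whether these are separate cultures, so each p measures only the spread between these libraries.

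Mouse ESC cultures in LIF hold cells resembling the epiblast, the source of the embryo proper, beside cells that express the program of primitive endoderm, a lineage that lines the early embryo and forms yolk sac. The 8 genes are better known from adult organs, chiefly kidney, nervous system, pancreas and blood plasma, than from ESCs. They code for proteins with unrelated tasks: a receptor and an adhesion protein at the cell surface, a pair of secreted proteins, an actin nucleator, an arginine methyltransferase, a transcription elongation factor and a protein of the NDRG family.

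The libraries held between 4809661 and 7273669 counts. The sort genes followed the labels. Pecam1 stood at 1.57 and 1.51 CPM (counts relative to library size, scaled by TMM) in the PDGFRa-only libraries, 53.8 and 44.9 in the double-positive and 166 and 143 in the PECAM1-only libraries. Pdgfra stood at 557 ± 68.2 CPM (SD, n = 2) in PDGFRa-only, 535 ± 24.1 in double-positive and 1.96 ± 0.111 in PECAM1-only cells. Bulk RNA cannot tell fewer cells that express a gene from less of its RNA in each cell.

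Ngfr (ENSMUSG00000000120, chr11:95568818-95587735, minus strand, GRCm38) codes for p75, the low-affinity receptor that binds all neurotrophins and is carried by neural crest cells and neurons. It had 0 counts in both PDGFRa-only libraries, 32 and 17 in the double-positive and 105 and 48 in the PECAM1-only libraries. In CPM these were 5.04 and 2.66 in double-positive and 15.3 and 7.53 in PECAM1-only cells. The fractions did not overlap, and replicate 1 was the higher in both PECAM1-positive fractions. The mean PECAM1-only level was at least 42.1-fold higher than the PDGFRa-only level. This takes 3 counts summed over both PDGFRa-only libraries, or 0.271 CPM, as the upper limit that a count of 0 allows. Here and below, such a bound uses the mean of the higher fraction and does not cover the error or spread of that mean. The lower PECAM1-only library of Ngfr, at 7.53 CPM, would give a smaller one.

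Nphs1 (ENSMUSG00000006649, chr7:30458315-30487223, plus strand) codes for nephrin, an immunoglobulin-type adhesion protein of the slit diaphragm, the filter between the podocytes of the kidney. It had 0 counts in both PDGFRa-only libraries. It stood at 8.03 and 9.39 CPM in the double-positive libraries and at 45.1 and 47.4 CPM in the PECAM1-only libraries. The 2 libraries of each fraction lay close together and far from those of the next fraction. The PECAM1-only level was at least 171-fold higher than the PDGFRa-only level and 5.31 times the double-positive level (exact 95% counting interval 4.33 to 6.55). Such intervals and floors cover counting error only, because the RNA was amplified and the reads carry no molecular identifiers. Nphs1 overlaps the antisense gene Nphs1os, which had 0 counts in PDGFRa-only, 4 and 5 in double-positive and 11 and 18 in PECAM1-only libraries. Whether reads were assigned by strand is not given in the sources used here, so the reads of the pair cannot be told apart.

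A2m (ENSMUSG00000030111, chr6:121635376-121679227, plus strand) codes for alpha-2-macroglobulin, a secreted protein that traps proteases. It was not absent from the PDGFRa-only libraries, with 2 and 11 counts or 0.449 and 1.66 CPM. It stood at 10.4 and 8.61 CPM in double-positive and at 44.0 and 52.5 CPM in PECAM1-only libraries. Without overlap between fractions, the PECAM1-only level was 41.0 times the PDGFRa-only level (interval 23.8 to 77.4). A2m has close relatives in a cluster on the same chromosome, and reads shared with them could be split by the counting. Of these, Mug1 and Mug2 had 0 counts in all 6 libraries and Pzp was lower than A2m in each PECAM1-positive library, at 8.73 and 9.57 CPM in PECAM1-only cells.

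Pla2g1b (ENSMUSG00000029522, chr5:115466262-115474722, plus strand) codes for the secreted phospholipase A2 of pancreatic juice, which cleaves phospholipids. It had 0 counts in PDGFRa-only cells, 5.35 and 5.63 CPM in the double-positive libraries and 15.4 and 26.2 CPM in the PECAM1-only libraries. The double-positive libraries were nearly equal while the PECAM1-only libraries were not, and no library of one fraction reached into the other. The PECAM1-only level was at least 76.8-fold higher than the PDGFRa-only level.

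Cobl (ENSMUSG00000020173, chr11:12236608-12464960, minus strand) codes for cordon-bleu, a protein that starts new actin filaments. It had the most counts of the 8 genes in both PECAM1-positive fractions. Its single read in the PDGFRa-only fraction came from replicate 2, and it had 263 and 223 counts in double-positive and 980 and 1199 in PECAM1-only libraries. In CPM these were 41.4 and 34.9 in double-positive and 143 and 188 in PECAM1-only cells. The ratio of PECAM1-only to PDGFRa-only was 1822, with a counting interval from 327 to 7.20e+04 that reflects the single read. The antisense gene Gm12002 lies within Cobl and had 0 counts in PDGFRa-only, 6 and 7 in double-positive and 26 and 22 in PECAM1-only libraries, again with reads that cannot be told apart by strand here.

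Prmt8 (ENSMUSG00000030350, chr6:127689011-127769472, minus strand) codes for an arginine methyltransferase that is anchored to the plasma membrane and known from neurons. It had 0 counts in the PDGFRa-only libraries, 11.2 and 9.39 CPM in the double-positive and 28.7 and 35.6 CPM in the PECAM1-only libraries. The order of the fractions held without overlap, and the PECAM1-only level was at least 119-fold higher than the PDGFRa-only level. It was 3.11 times the double-positive level, close to the 3.14 times of Pecam1 itself.

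Tcea3 (ENSMUSG00000001604, chr4:136247729-136274898, plus strand) codes for a form of TFIIS, which helps RNA polymerase II resume when it stalls. It had 1 read in the PDGFRa-only fraction, in replicate 2. It stood at 6.92 and 3.13 CPM in double-positive and at 36.0 and 25.1 CPM in PECAM1-only libraries. Replicate 1 was the higher in both PECAM1-positive fractions, and the fractions stayed apart. Its PECAM1-only level was 6.12 times the double-positive level (interval 4.69 to 8.09), the largest such ratio among the 8 genes.

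Ndrg2 (ENSMUSG00000004558, chr14:51905271-51914158, minus strand) codes for a member of the N-myc downstream-regulated family, known from astrocytes and muscle. It had 2 and 6 counts in the PDGFRa-only libraries, 12 and 20 in the double-positive and 69 and 116 in the PECAM1-only libraries. These were 0.449 and 0.906 CPM, then 1.89 and 3.13 CPM, then 10.04 and 18.2 CPM. Replicate 2 was the higher in each fraction, and no 2 fractions overlapped. The PECAM1-only level was 19.3 times the PDGFRa-only level (interval 9.61 to 45.4), the smallest such ratio of the 8 genes.

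**Figure D1:**
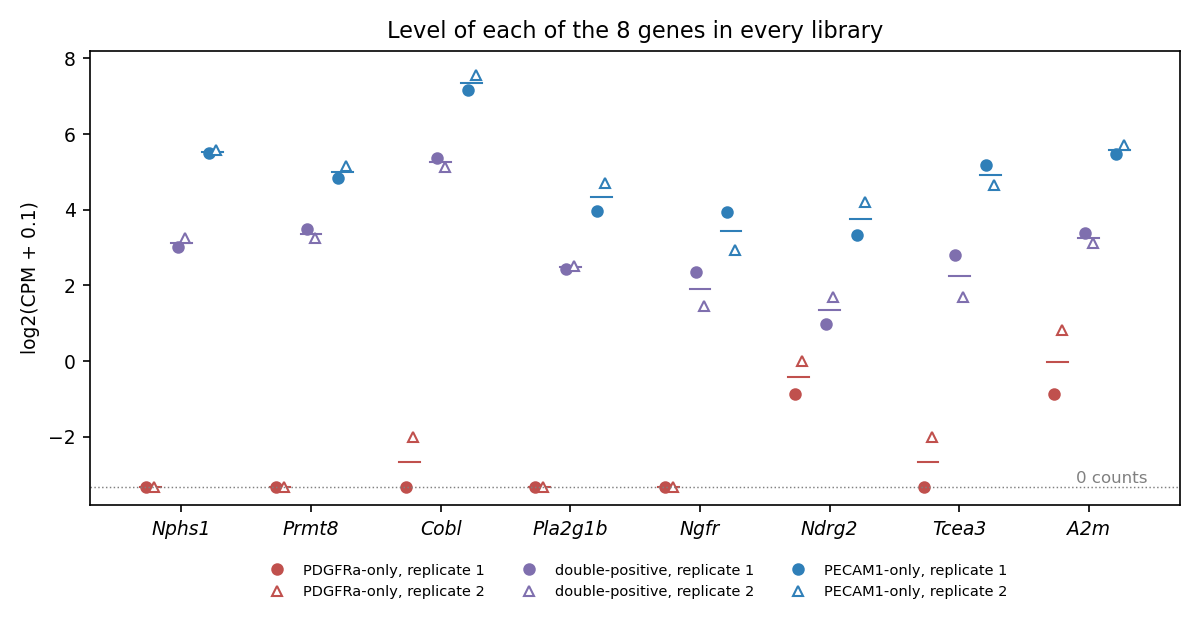
Level of each of the 8 genes in every library, as log2(CPM + 0.1), with circles for replicate 1, triangles for replicate 2 and a bar at the mean of the 2 plotted values. The dotted line marks 0 counts, where both PDGFRa-only libraries of 4 genes lie, and all 8 genes are lowest in PDGFRa-only, intermediate in double-positive and highest in PECAM1-only libraries without overlap, as are 22.7% of all 13909 genes tested.

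The order without overlap follows from how the genes were chosen, so nothing is read from it. Of all genes tested, 22.7% had this order. PECAM1-only libraries lay above double-positive ones without overlap in 35.5%, and double-positive above PDGFRa-only ones in 30.2%. Of 666 other genes with a fitted fall of at least 16-fold from PECAM1-only to PDGFRa-only cells, 633 (95%) had the order.

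In sum over the PDGFRa-only libraries, 4 of the 8 genes had 0 counts, 2 had 1 count, Ndrg2 had 8 and A2m had 13. The first 4 were thus not seen in PDGFRa-only cells at this depth, 2 were at a single read, and Ndrg2 and A2m were present. Cells without either sort protein were not among the 3 fractions, so restriction to PECAM1-positive cells could be read only against PDGFRa-only cells. The share of all genes with 0 or 1 counts in that fraction is not given here, so nothing is read from these counts. The fitted fall from PECAM1-only to PDGFRa-only was -11.16 (log2) for Nphs1, -10.63 for Prmt8, -10.55 for Cobl, -10.00 for Pla2g1b, -9.15 for Ngfr, -8.11 for Tcea3, -5.35 for A2m and -4.26 for Ndrg2. For the genes with 0 counts this value depends on the prior count and is no bound. Without PDGFRa-only replicate 2 it was -12.97 for Cobl and -10.54 for Tcea3, whose only reads in that fraction came from this library, and -6.68 for A2m and -4.90 for Ndrg2. Without replicate 1 of that fraction it was -9.91 for Cobl and -7.47 for Tcea3, and without PECAM1-only replicate 1 it was -8.50 for Ngfr. Among the 10425 genes whose level averaged 5 CPM or more across all 6 libraries, these falls held ranks 1, 2, 3, 6, 14, 22, 119 and 219. Among all 13909 genes tested, Tcea3 had rank 70, A2m 370 and Ndrg2 600, and the other 5 genes kept their ranks. Slc27a2 at rank 4, Fgf4 at rank 5 and Nlrp14 at rank 7 lay between or just beyond members, with -10.43, -10.06 and -9.90. In the fall from PECAM1-only to double-positive cells the order was another: Tcea3 had rank 1 with -2.60, Ndrg2 rank 3 with -2.48, Nphs1 rank 4 with -2.41 and A2m rank 8 with -2.34, while Cobl (-2.12), Pla2g1b (-1.91), Prmt8 (-1.64) and Ngfr (-1.57) had ranks 19, 54, 158 and 196. Gm5514 at rank 2, Nlrp14 at rank 6 and Nanog at rank 7 were among the genes between them. Among all genes tested, lower-count genes included, these ranks were 26 for Tcea3, 37 for Ndrg2, 48 for Nphs1, 61 for A2m, 127 for Cobl, 228 for Pla2g1b, 463 for Prmt8 and 543 for Ngfr. A single library moved some of these falls: that of Ngfr was -0.94 without PECAM1-only replicate 1, and that of Tcea3 -3.26 without double-positive replicate 1. These falls chose the genes, so nothing is read from them. For scale, 28.8% of all genes tested were called lower in PDGFRa-only than in PECAM1-only cells (59.0% in either direction) and 16.4% lower in double-positive than in PECAM1-only cells (38.2% in either direction), by edgeR's quasi-likelihood test with Benjamini-Hochberg adjustment at a threshold of 0.05.

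To set the genes against each other, CPM in PECAM1-only cells was divided by the length of the annotated exons. Per kilobase, Pla2g1b had the highest level at 29.2 ± 10.7 CPM (SD, n = 2), followed by Tcea3 at 21.8 ± 5.49 and Cobl at 20.3 ± 3.94. The libraries of each overlapped those of the next, so the order among these 3 is not resolved. Prmt8 followed at 11.8 ± 1.80 without overlap with Cobl. Nphs1 at 6.99 ± 0.238 and A2m at 6.87 ± 0.863 overlapped each other and lay below Prmt8. Ndrg2 at 4.16 ± 1.70 and Ngfr at 3.31 ± 1.59 were lowest and overlapped too. The median of 13772 tested genes with a known length was 4.31 CPM per kilobase. In the PECAM1-only fraction, Pla2g1b stood at the 91.0th percentile of these genes and Ngfr at the 43.5th. A gene without reads in PDGFRa-only cells could thus be either well or modestly expressed in PECAM1-only cells.

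RefSeq windows around annotated transcription starts (GRCm38.p6, 250 bases before to 50 after) were matched by symbol for 7 of the 8 genes, 11 windows in all; none was matched for A2m. They are shown for genes that share the order of the fractions but differ in base composition at their starts. The deposited counts are per gene and do not say which start was used. The windows of Cobl and Pla2g1b are printed 5′ to 3′ on the gene's strand and only up to the start or the first annotated untranslated base. In the first and the third, capitals mark each CG pair, and in the second they mark matches to motifs named after the sequences. The first lies before the upstream start of Cobl (chr11:12464961-12465210, minus strand), the second before a start inside the gene (chr11:12412145-12412390, minus strand) and the third before Pla2g1b (chr5:115465892-115466141, plus strand).
Cobl upstream start: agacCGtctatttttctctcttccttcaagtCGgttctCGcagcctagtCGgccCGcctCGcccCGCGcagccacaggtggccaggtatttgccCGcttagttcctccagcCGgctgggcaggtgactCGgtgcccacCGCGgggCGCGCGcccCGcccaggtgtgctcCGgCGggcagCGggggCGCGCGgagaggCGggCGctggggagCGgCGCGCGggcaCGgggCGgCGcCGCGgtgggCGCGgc
Cobl internal start: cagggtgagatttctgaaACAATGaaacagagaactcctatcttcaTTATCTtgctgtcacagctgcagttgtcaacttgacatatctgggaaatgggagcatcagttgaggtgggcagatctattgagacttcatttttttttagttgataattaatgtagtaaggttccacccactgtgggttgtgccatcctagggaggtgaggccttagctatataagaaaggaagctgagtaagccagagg
Pla2g1b: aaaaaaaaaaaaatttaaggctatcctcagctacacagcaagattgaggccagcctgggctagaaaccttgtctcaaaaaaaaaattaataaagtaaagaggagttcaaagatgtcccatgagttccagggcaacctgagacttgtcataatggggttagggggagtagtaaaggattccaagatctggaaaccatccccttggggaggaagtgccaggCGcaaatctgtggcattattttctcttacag
The stretch before the upstream start of Cobl holds 36 CG pairs in 250 bases, the internal one 0 in 246 bases and that of Pla2g1b 1 in 250 bases. In the full windows of 300 bases the number was 42, 0 and 2. Prmt8 had 44 in its window at chr6:127769106-127769405, while the median of 32851 RefSeq windows was 7 (quartiles 3 and 20). The 7 genes with a window thus share no common base composition at their starts.

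Each window was searched on both strands for 6 motifs of factors active in ESCs or endoderm: the octamer ATTTGCAT, the SOX motif ACAATG, the ESRRB motif TCAAGGTCA, the KLF motif GGGTGTGG, the GATA motif AGATAA and the E-box CACGTG. No motif's letters lie within another's. They occur in 1.74%, 12.6%, 0.423%, 3.56%, 11.2% and 7.15% of all 32851 windows. In the 11 windows, SOX matched in 2, those of Nphs1 and of the internal start of Cobl, and GATA matched in the same 2. The other 4 motifs had no match, which says only that these letters are not in these windows. In the internal Cobl stretch, ACAATG starts at base 19 and the reverse complement of AGATAA at base 47. A match is a description of the sequence and not a binding site.

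Double-positive cells carry both sort proteins, and the comparison of interest is where the 8 genes stand between the other fractions. All 8 genes were higher in double-positive than in PDGFRa-only cells, by edgeR's quasi-likelihood test with Benjamini-Hochberg adjustment over all genes tested, of which 11.7% were called higher. The low PDGFRa-only values that put these genes among the largest falls enter this comparison as well. Neither the count nor the p of any of the 8 genes is therefore independent of their choice, and each p is given as a description. Read against the 666 other genes with a fall of at least 16-fold, the count is not particular: 554 of those, or 83.2%, were called higher too.

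Among the surface and secreted proteins, Ngfr had a log2 fold change of 7.58 (SE 1.23, adjusted p = 0.000202, edgeR). Its mean rose at least 14.2-fold, a bound that again leaves out the spread between the double-positive libraries. Nphs1 had 8.75 (SE 0.79) and rose at least 32.1-fold, and Pla2g1b had 8.09 (SE 1.00) and rose at least 20.3-fold. A2m, with reads in both PDGFRa-only libraries, rose by 3.01 (SE 0.40, adjusted p = 1.57e-05, edgeR). Inside the cell, Cobl had 8.43 (SE 0.48), Prmt8 8.99 (SE 0.79) with a rise of at least 37.9-fold, and Tcea3 5.51 (SE 0.80). As a description, the adjusted p of these 7 genes lay between 1.14e-10 (Cobl) and 0.000202 (Ngfr) in edgeR. In each of them both double-positive libraries lay above both PDGFRa-only libraries, and the call held in all 12 alternative settings. The size of the rise moved when a library was left out. Without PDGFRa-only replicate 2 it was 4.34 for A2m, 10.86 for Cobl and 7.95 for Tcea3. Without replicate 1 of that fraction it was 7.80 for Cobl. Without double-positive replicate 1 it was 4.84 for Tcea3 and 7.05 for Ngfr. For the genes without reads in PDGFRa-only cells, the fitted size depends on the prior count. Leaving out a library of that fraction cannot test its stability for these genes.

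Ndrg2 was the exception in strength. Its rise of 1.78 (SE 0.61) had an adjusted p of 0.0471 in edgeR, and the ratio of summed counts, 32 against 8, was 3.48 (interval 1.57 to 8.73). The call was lost in 4 of the 12 settings: with DESeq2 (adjusted p = 0.0854), with the 2 fractions fitted alone (0.0574 in edgeR), without PDGFRa-only replicate 1 (0.136) and without double-positive replicate 2 (0.268). The direction held in all of them, and without PDGFRa-only replicate 2 the rise was 2.43.

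As a share of the PECAM1-only mean, the double-positive level was 16.5% for Tcea3, 17.8% for Ndrg2, 18.8% for Nphs1, 19.7% for A2m, 23.1% for Cobl, 26.4% for Pla2g1b, 32.0% for Prmt8 and 33.7% for Ngfr. The SD over the 2 double-positive libraries was 2.08 percentage points for Nphs1 and 0.961 for Pla2g1b, but 8.79 for Tcea3 and 14.7 for Ngfr, so the ends of this order are the least certain. Pecam1 itself stood at 32.0%. The median of the 8 genes was 21.4%. In the 666 other genes with a fall of at least 16-fold it was 31.9%, with quartiles of 25.9% and 40.0%; 360 of them (54.1%) lay within the range of the 8 genes, 24 below it and 282 above it. The choice of genes by their falls favours low shares here, so this difference is a description. Over all genes tested the median was 99.2%.

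**Figure D2:**
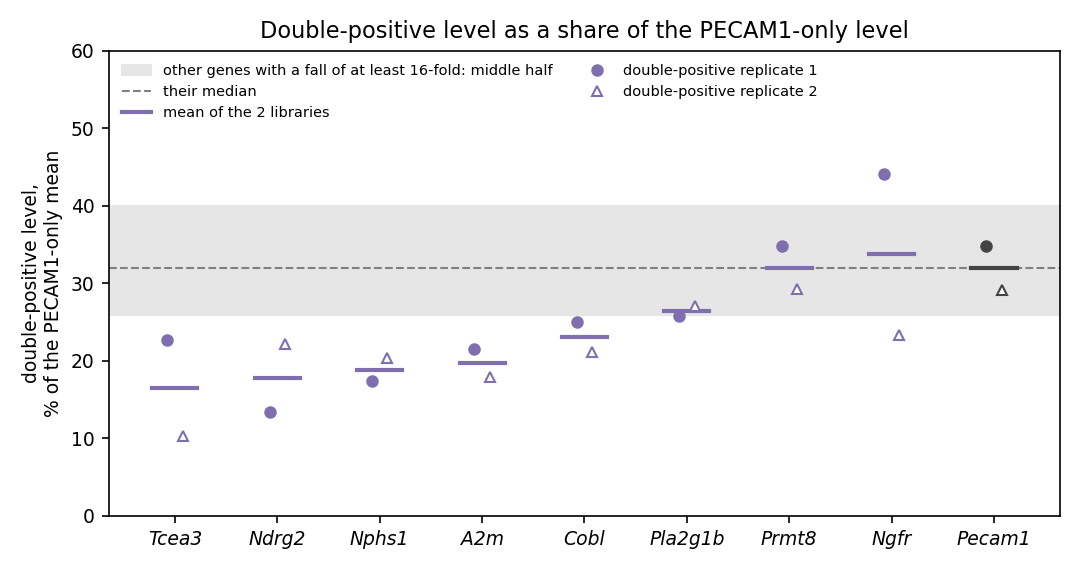
Double-positive level of each gene as a percentage of its PECAM1-only mean, for both double-positive libraries (circle and triangle) and their mean (bar), with Pecam1 in dark grey at the right. The dashed line and grey band give the median (31.9%) and quartiles (25.9% and 40.0%) of 666 other genes with a fall of at least 16-fold; 5 of the 8 means lie below the band.

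In PECAM1-only cells, the exact 95% counting interval of the ratio of replicate 1 to replicate 2 left out 1 for 7 of 8 genes, all but Nphs1 at 0.953 (0.811 to 1.12). Of 6897 tested genes with summed counts in the range of the 8 (153 to 2179), the interval left out 1 for 31.0%. Ngfr had the largest ratio, 2.03 (1.43 to 2.92), and Ndrg2 the smallest, 0.552 (0.404 to 0.750). In double-positive cells the interval left out 1 for 2 of 8 genes, Ngfr at 1.89 (1.02 to 3.63) and Tcea3 at 2.21 (1.28 to 3.96), against 16.8% of 7363 genes in the same range of counts (32 to 486). The 8 genes have fewer counts in this fraction, which widens the intervals. The same replicate number was the higher in both fractions for 5 of the 8 genes, and the numbers are not known to mark a shared culture. The share over all genes was not computed, so nothing is read from this count. Over all 13909 genes tested, the deviations of same-numbered libraries in these fractions correlated with r = 0.183. For Ngfr the gap between its PECAM1-only libraries (15.3 and 7.53 CPM) was larger than the gap from the lower of them to the higher double-positive library (5.04 CPM).

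**Figure D3:**
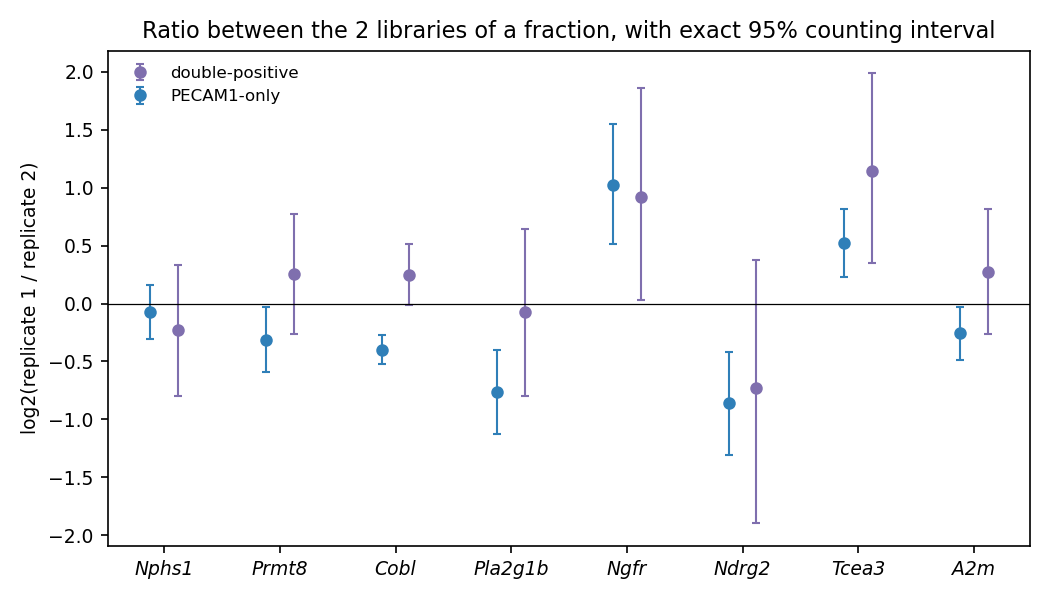
Ratio of replicate 1 to replicate 2 for each gene, as log2, in PECAM1-only (blue) and double-positive (purple) cells, with exact 95% counting intervals as bars. Ngfr and Tcea3 lie above 0 in both fractions and Ndrg2 below 0 in both, while Nphs1 lies near 0 in both.

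The next question was whether relatives and partners of the 8 proteins follow the same order. Of 108 such genes listed, 106 were in the count table and 76 passed the filter. Between PDGFRa-only and PECAM1-only cells, 31 of the 76 were lower in PDGFRa-only (40.8%, against 28.8% of all genes tested), 25 were higher (32.9% against 30.1%) and 20 did not pass. Their median log2 fold change was -0.12, and that of all genes tested 0.01. Between double-positive and PECAM1-only cells 23 were lower (30.3%, against 16.4%) and 18 higher (23.7%, against 21.8%). Between double-positive and PDGFRa-only cells 16 were higher (21.1%, against 11.7%) and 3 lower (3.95%, against 5.94%). The lists were put together with results of these data known, and these counts single out no list. Scaling by library size alone moved the median of all genes by -0.288 (log2) between PDGFRa-only and PECAM1-only cells and by -0.213 between double-positive and PECAM1-only cells, and with it the split of calls: 36 of the 76 were then lower and 19 higher in the first comparison, and 28 lower and 14 higher in the second. Over all genes, the share of calls that were lower went from 48.9% to 62.2% and from 43.0% to 60.2%, and in double-positive against PDGFRa-only cells from 33.7% to 21.9%.

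The neurotrophin system around Ngfr went both ways. Among its ligands, Ntf3 had 0 counts in all 6 libraries, and Bdnf had 0 in PDGFRa-only, 3 and 2 in double-positive and 21 and 7 in PECAM1-only libraries. Of 9 genes tested, 4 were lower and 5 higher in PDGFRa-only than in PECAM1-only cells. The lower ones, Sort1, Sorcs2, Ntrk2 and Lingo1, code for receptors and co-receptors. Sort1 codes for sortilin, the partner of p75 in binding proneurotrophins. Sort1 stood at 2.74 ± 0.248 CPM in PDGFRa-only, 12.4 ± 3.72 in double-positive and 23.8 ± 5.84 in PECAM1-only cells (log2 fold change between the outer fractions -3.12, adjusted p = 5.10e-08, edgeR). Sorcs2, of the same receptor family, followed with 0.676, 5.72 and 8.14 CPM (-3.64), and the BDNF receptor Ntrk2 with 0.263, 1.49 and 4.05 CPM (-3.81). The p75 co-receptor Lingo1 fell by 3.09 (adjusted p = 0.00248), a call that was lost without PDGFRa-only replicate 2, with an adjusted p of 0.0655. The higher ones were 3 intracellular adaptors (Maged1, Ngfrap1 and Traf6), the p75 relative Nradd and the ligand Ntf5. Maged1 stood at 416 ± 107 CPM in PDGFRa-only and 173 ± 14.1 in PECAM1-only cells, and Ngfrap1 at 179 ± 10.03 and 76.3 ± 7.85. Nradd and Ntf5 passed in 3 and 9 of the 12 alternative settings, with adjusted p up to 0.226 and 0.230, and Ntf5 had at most 16 counts in a library.

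Partners of nephrin went both ways, with 4 of 14 lower, 5 higher and 5 not passing between PDGFRa-only and PECAM1-only cells. Kirrel2, a nephrin relative that binds it, had 1 and 5 counts in PDGFRa-only, 11 and 5 in double-positive and 33 and 40 in PECAM1-only libraries (log2 fold change -3.32, adjusted p = 5.80e-05, edgeR). In CPM its libraries nearly touched, at 0.224 and 0.755 in PDGFRa-only and 1.73 and 0.782 in double-positive cells. The difference between these fractions did not pass (adjusted p = 0.281, edgeR). The scaffold Magi1 fell from 23.0 ± 3.02 CPM in PECAM1-only to 3.11 ± 1.63 in PDGFRa-only cells (-2.95), and the kinase Fyn, which phosphorylates nephrin, also fell (-2.27). In the other direction, Podxl, the sialomucin of podocytes, stood at 783 ± 52.3 CPM in PDGFRa-only, 492 ± 22.8 in double-positive and 32.9 ± 5.53 in PECAM1-only cells (4.57), and Kirrel at 125, 97.1 and 26.7 CPM (2.22).

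The macroglobulin list had 4 genes tested, and 3 of them were lower in PDGFRa-only than in PECAM1-only cells. Pzp, the closest relative of A2m measured, stood at 0.602 ± 0.217, 3.69 ± 0.984 and 9.15 ± 0.588 CPM in PDGFRa-only, double-positive and PECAM1-only cells (-3.82, adjusted p = 6.73e-07, edgeR). Lrp1, the receptor that clears alpha-2-macroglobulin bound to proteases, stood at 6.13 ± 0.732, 44.9 ± 11.7 and 112 ± 22.3 CPM (-4.17), and Cd109, a membrane-bound member of the family, at 0.188, 1.18 and 4.52 CPM (-4.50). Both Pzp (2.51) and Lrp1 (2.85) were also higher in double-positive than in PDGFRa-only cells. Lrpap1, the chaperone of Lrp1, went the other way: it stood at 1226 ± 262 CPM in PDGFRa-only, 884 ± 83.3 in double-positive and 39.4 ± 4.97 in PECAM1-only cells (4.96). The receptor gene was thus higher, and the gene of its chaperone lower, in PECAM1-only than in PDGFRa-only cells.

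Of the secreted phospholipases A2 and their receptor, 3 of 11 were expressed enough to test. Pla2g10 had the order of Pla2g1b, with 0.939 ± 0.260, 4.71 ± 1.35 and 16.3 ± 3.95 CPM in PDGFRa-only, double-positive and PECAM1-only cells (-4.14, adjusted p = 2.81e-08, edgeR). Pla2g12b had the reverse order, with 42.4 ± 1.63, 24.2 ± 0.873 and 0.386 ± 0.341 CPM (6.73, adjusted p = 3.00e-12). Pla2g12a did not pass (-0.48, adjusted p = 0.173). Pla2r1, the receptor of secreted phospholipases, had between 0 and 6 counts in each library.

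Among 20 tested actin nucleators and partners of cordon-bleu, 8 were lower and 7 higher in PDGFRa-only than in PECAM1-only cells. Pacsin1, which codes for syndapin I, a membrane-bending partner of cordon-bleu in neurons, had 1 and 1 counts in PDGFRa-only, 11 and 16 in double-positive and 58 and 79 in PECAM1-only libraries (-5.69, adjusted p = 6.51e-08, edgeR). Its widely expressed relative Pacsin2 was higher in PDGFRa-only cells, at 152 ± 7.01 CPM against 68.3 ± 5.70 (1.15). Wasf3, an activator of the ARP2/3 complex, stood at 2.63, 13.1 and 33.3 CPM over the 3 fractions (-3.70), with Wasf1 (-3.67) and the nucleator Spire2 (-3.98) falling likewise. Cobll1, the paralog of Cobl, had the reverse order of Cobl, with 75.1 ± 0.727, 58.6 ± 4.54 and 6.27 ± 0.223 CPM (3.58, adjusted p = 7.37e-12). The step between its double-positive and PDGFRa-only levels did not pass (-0.36, adjusted p = 0.160, edgeR).

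The other arginine methyltransferases were present in all fractions, and none differed as Prmt8 did. Between PDGFRa-only and PECAM1-only cells, Prmt3 (-0.96, adjusted p = 0.00011, edgeR) and Prmt7 (-0.73) were lower and Carm1 (0.70) was higher in each of the 12 alternative settings as well. Prmt1 (-0.56, adjusted p = 0.0109) and Prmt5 (-0.62, adjusted p = 0.0131) passed too. Prmt1 was lost without PECAM1-only replicate 1 (adjusted p = 0.0548), and Prmt5 without either PDGFRa-only replicate 2 or PECAM1-only replicate 1 (highest adjusted p = 0.200). Prmt2, Prmt6 and Prmt10 did not pass. None of the 8 passed between double-positive and PDGFRa-only cells in the main edgeR fit, where 1 of them (Carm1) had an unadjusted p below 0.05. None passed in DESeq2, and Carm1 passed in 1 of the 12 alternative settings.

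The elongation factors included 6 of 15 that were lower and 4 that were higher in PDGFRa-only than in PECAM1-only cells. The paralogs of Tcea3 shared its direction with smaller differences: Tcea1 stood at 10.1 ± 4.82, 13.3 ± 0.608 and 24.0 ± 0.408 CPM over the 3 fractions (-1.30, adjusted p = 0.000366, edgeR) and Tcea2 at 0.717, 1.41 and 4.06 CPM (-2.32, adjusted p = 0.00231). Ell2, a subunit of the super elongation complex, stood at 20.9 ± 1.19, 57.4 ± 2.66 and 120 ± 16.7 CPM (-2.52). Tceb3, which codes for elongin A, was higher in PDGFRa-only cells, at 109 ± 3.27 CPM against 44.3 ± 1.69 (1.30).

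None of the 3 paralogs of Ndrg2 shared the size of its difference. Ndrg1 was lower in PDGFRa-only than in PECAM1-only cells by edgeR (-0.80, adjusted p = 0.00925), a call lost without PDGFRa-only replicate 1 or without PECAM1-only replicate 2 (highest adjusted p = 0.105). Ndrg3 was higher (0.51, adjusted p = 0.0341) but passed in 5 of the 12 alternative settings, with adjusted p up to 0.347. Ndrg4 was level, at 14.2 ± 4.24 and 14.2 ± 0.322 CPM (0.03, adjusted p = 0.939).

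**Figure D4:**
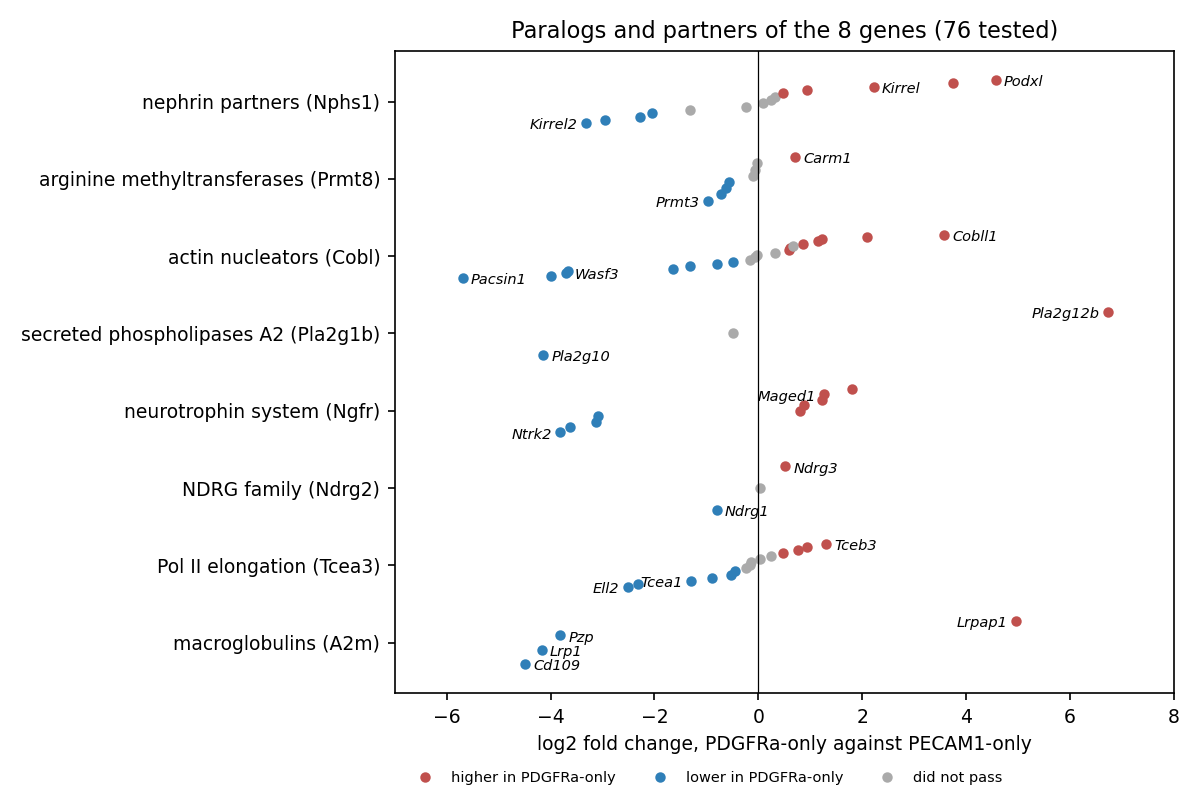
Log2 fold change between PDGFRa-only and PECAM1-only cells for the 76 tested relatives and partners of the 8 genes, 1 row for each list, with genes higher in PDGFRa-only in red, lower in blue and those that did not pass (edgeR, adjusted p threshold 0.05) in grey. The macroglobulin row holds 3 blue genes and Lrpap1 in red, and every row spreads to both sides of 0.

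The genes next to the 8 on the chromosome were read in the same way. Of 16 nearest protein-coding neighbours, 15 were in the count table and 7 were tested. In edgeR, 4 of the 7 were lower in PDGFRa-only than in PECAM1-only cells (28.8% of all genes tested were) and 1 was higher. Kirrel2 starts 624 bases from Nphs1 on the opposite strand and codes for the nephrin relative described above. Asap3, 2512 bases from Tcea3, stood at 0.602 ± 0.217, 2.12 ± 0.119 and 6.20 ± 0.540 CPM over the 3 fractions (-3.26, adjusted p = 1.35e-05). Msi1, a neural RNA-binding protein gene 10563 bases from Pla2g1b, stood at 3.15 ± 1.26, 9.10 ± 2.63 and 19.0 ± 9.22 CPM (-2.64, adjusted p = 7.11e-06). Grb10, 197924 bases from Cobl, stood at 5.56 ± 0.389 CPM in PDGFRa-only and 39.0 ± 12.1 in PECAM1-only cells (-2.81, adjusted p = 3.23e-06). Its double-positive level of 30.4 ± 16.5 CPM did not differ from the PECAM1-only level beyond the spread (-0.36, adjusted p = 0.370). The calls of Kirrel2, Asap3, Msi1 and Grb10 between PDGFRa-only and PECAM1-only cells held in all 12 alternative settings.

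The other 3 tested neighbours were not lower in PDGFRa-only cells by the test. Zfp46, 9784 bases from Tcea3, was higher in PDGFRa-only cells (1.30, adjusted p = 0.00273, edgeR). Sirt4, 3287 bases from Pla2g1b on its other side, did not pass (-0.61, adjusted p = 0.157), though its libraries had the order of the 8 genes without overlap: 3.59 and 3.32 CPM in PDGFRa-only, 4.09 and 4.38 in double-positive and 5.39 and 5.17 in PECAM1-only cells. Phb near Ngfr did not pass either (-0.00, adjusted p = 0.994), and its fractions overlapped. The neighbours of Prmt8, Ndrg2 and A2m were too low to test or not analysed here, with at most 19 counts in any library. Of these, Iqsec3 next to A2m had the order too, with 0.449 and 0 CPM in PDGFRa-only, 0.472 and 0.939 in double-positive and 1.31 and 2.98 in PECAM1-only libraries.

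By profile over the 6 libraries, the genes nearest to the mean of the 8 were Hook1, Pipox, Map1a, Sema5b, Klf12, Nlrp14, Sox2 and Usp26, in that order. The measure was the Euclidean distance of log2(CPM + 0.5) centred on the PECAM1-only libraries, and it ranged from 0.508 for Hook1 to 0.679 for Usp26. All 8 of these lay nearer to the mean profile than any of the 8 members, whose distances ran from 0.738 for Pla2g1b to 3.60 for Cobl. Hook1, which codes for a microtubule linker protein, stood at 1.01 ± 0.153, 21.8 ± 0.135 and 82.7 ± 0.822 CPM over the 3 fractions. Sox2, a core pluripotency factor, stood at 1.35, 29.9 and 97.0 CPM, with a double-positive level of 30.8% of the PECAM1-only level. Nlrp14 had 0 counts in PDGFRa-only cells, 3.69 ± 0.348 CPM in double-positive and 19.3 ± 1.55 in PECAM1-only cells.

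Markers of cell types moved with the same fractions. The summed level of 8 ESC markers was 263 and 210 CPM in PDGFRa-only, 577 and 502 in double-positive and 1485 and 1540 in PECAM1-only libraries, and 7 of the 8 were lower in PDGFRa-only than in PECAM1-only cells. That of 8 primitive endoderm markers ran the other way, with 20.7 and 23.2 CPM in PECAM1-only, 7303 and 7871 in double-positive and 9712 and 10826 in PDGFRa-only libraries. Since several of the 8 genes are known from neurons or glia, neural markers were read as well: of 8, 6 were tested and all 6 were lower in PDGFRa-only cells, with a summed level of 6.06 and 6.50 CPM in PDGFRa-only, 21.9 and 32.1 in double-positive and 60.7 and 64.1 in PECAM1-only libraries. The neural markers below the filter were Neurog2, with 0 counts in all libraries, and Dcx, with between 0 and 6. The sum of 6 trophoblast markers rose from 1.35 and 1.96 to 33.9 and 37.8 CPM, nearly all of it from Tfap2c, with Cdx2 at 0 counts in PECAM1-only libraries. The part of such cells in the levels of the 8 genes was not tested. Fibroblast markers summed to between 1.41 and 5.79 CPM in every library. Of 6 endothelial and blood markers, Ptprc, Erg and Emcn had 0 counts in all libraries, and the sum, mostly from Cdh5, was 125 and 74.5 CPM in PDGFRa-only, 73.0 and 57.7 in double-positive and 0.582 and 0.627 in PECAM1-only libraries.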

How the data were processed

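Messenger RNA levels in 6 libraries, 2 for each of 3 sorted fractions, were read from the authors' deposited table of raw counts per gene (total RNA, amplified, per the labels' protocols). The submitters' processing notes list HTSeq 0.5.4p3, TopHat2 2.0.8b, Bowtie2 2.1.0 and cutadapt 1.2.1, with no role for each, and the build GRCm38; the annotation release and the strand setting are not given in the sources used here. A table of RPKM values, also deposited by the authors, served only as an alternative. Positions and exon lengths came from GENCODE M21 (36723 identifiers matched).

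Genes were kept by filterByExpr (minimum count 10; 13909 of 24748 with a count) and tested in edgeR 4.0.16 (R 4.3.3, limma 3.58.1) with TMM scaling and a robust quasi-likelihood fit of 1 mean per fraction to all 6 libraries (3 residual degrees of freedom, two-sided, Benjamini-Hochberg adjustment over all tested genes, threshold 0.05). The biological coefficient of variation was 13.5%. On simulated data for double-positive against PDGFRa-only cells (13412 genes), 199 of 200 changes of 4-fold were recovered and 9 unchanged genes were called. The changes were placed only in genes above a minimum mean count, with a fixed dispersion and with PDGFRa-only libraries left at the mean. Recovery at the low PDGFRa-only counts of the 8 genes was not tested. The 12 alternative settings were DESeq2 1.42.0, upper-quartile scaling, library size alone, no count filter, each library left out in turn, a replicate block and each pair of fractions fitted alone. The 8 genes and all lists were chosen with earlier results of these data known. Genes were named as the 8 members, the sort genes, listed relatives with the largest or smallest change or the highest level and those needed to say which moved, the nearest neighbours and the 8 nearest profiles. Some listed genes are not reported here.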

Additional observations from a re-analysis of the deposited data

How the results depend on the processing

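In each of the 3 comparisons of fractions the 8 genes kept the direction of their fitted differences in all 12 alternative settings, and between 7 and 8 of them were called higher in double-positive than in PDGFRa-only cells when a library was left out. The exception was Ndrg2, whose adjusted p ranged from 0.0181 to 0.268 over the settings. The median double-positive level of the 8 genes, fitted as a percentage of the PECAM1-only level, was 21.3%. It ranged from 20.5% to 25.4% with a library left out. Other scaling gave lower values, 18.4% with library size alone, 19.0% with upper-quartile scaling and 20.3% with DESeq2. Of the relatives and partners, 41 of the 56 called between PDGFRa-only and PECAM1-only cells, 22 of the 41 called between double-positive and PECAM1-only cells and 12 of the 19 called between double-positive and PDGFRa-only cells passed in every setting. With a library left out, those lower in double-positive than in PDGFRa-only cells (3) ranged from 0 to 7, and those lower than in PECAM1-only cells (23) from 15 to 26. Over all genes, 826 were lower in double-positive than in PDGFRa-only cells; this count was 528 with library size alone as the scaling and ranged from 218 to 1235 with a library left out, lowest without double-positive replicate 1. The cause was not tested. On deposited RPKM, all 8 genes were also higher in double-positive than in PDGFRa-only cells, by 0.75 to 3.23 on the log2(value + 1) scale and by 1.46 to 5.20 with a pseudocount of 0.1.

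The replicate numbers were not taken as pairs in the main fit. Deviations from the fraction means correlated across genes with r = 0.132, -0.0289 and 0.183 between same-numbered libraries. These values cannot tell whether same-numbered libraries share a culture. With the replicate number as a block, 8 of the 8 genes were called higher in double-positive than in PDGFRa-only cells, Ndrg2 with an adjusted p of 0.0181 in edgeR, and 1769 genes in all were higher and 1065 lower. Depth limits the PDGFRa-only values: with 0 counts in both libraries, a level up to the floor of 0.271 CPM is not excluded by counting.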

Other observations

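Some relatives too low to test had their counts mostly or only in PECAM1-positive libraries. Hc, which codes for complement C5, a relative of alpha-2-macroglobulin, had 0 counts in both PDGFRa-only libraries, 1 and 1 in double-positive and 12 and 8 in PECAM1-only libraries. Kirrel3, which codes for a relative of nephrin, had 0 counts in the 4 PDGFRa-positive libraries and 8 and 5 in PECAM1-only libraries. Was, which codes for the WASP activator of actin branching in blood cells, had 0 and 1, 5 and 4, and 9 and 11 counts over PDGFRa-only, double-positive and PECAM1-only libraries.

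The deposited RPKM table listed no 0 for the genes that had 0 counts. Nphs1 was listed at 0.0300 in both PDGFRa-only libraries, Prmt8 at 0.0581, Ngfr at 0.0460 and Pla2g1b at 0.222. A fold change formed from these RPKM values therefore rests on a lowest listed value and not on a read.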
